A study of Araneus ventricosus with 24 samples.

Results

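Flagelliform spidroins are the silk proteins of the capture spiral of orb webs. Here they are 12 of the 142219 assembled RNA clusters of the orb-weaving spider *Araneus ventricosus*, chosen because the protein database description of the cluster contains the word flagelliform. All 12 were found by their NR (non-redundant protein database) hit and 0 by a Swissprot hit. RNA was measured in the ampullate gland and in the cerebral ganglia of spiders exposed to cadmium and lead for 30 days, to lead for 30 days or to cadmium for 30 days, and of untreated spiders. After copied columns were left out, each tissue held 10 distinct libraries: 2 from the exposure to cadmium and lead, 2 from lead, 3 from cadmium and 3 untreated. The sources used here give neither the doses, nor the sex and age of the spiders, nor how many animals went into a library. Since the labels do not tie libraries to separate animals, a p-value here reflects only how far these libraries scatter, which may be technical.

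Flagelliform silk is spun in the flagelliform glands as the elastic core fibre of the capture spiral, and glycoprotein glue from the neighbouring aggregate glands coats that fibre. Its spidroins are long proteins of glycine-rich and proline-rich repeats, which are known for giving the fibre its stretch. Major and minor ampullate glands make the dragline, frame and auxiliary spiral silks, aciniform glands make the silk that wraps prey, and pyriform glands make the cement of attachment discs. Neither tissue sampled here is the gland that flagelliform silk is named after. In bulk RNA of this kind, fewer cells of a type and less RNA per cell cannot be told apart.

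Library totals ran from 14834065 to 20954478 estimated counts. Replicates differed widely in their silks: in the untreated gland, aciniform clusters took 3.73 to 15.5% of all counts and major ampullate clusters 0.0334 to 1.15%. Muscle marker clusters took 0.138 to 0.618% of counts in the gland libraries and 2.79 to 5.67% in the ganglia libraries. Nerve marker clusters took 0.0567 to 0.117% in the gland libraries and 0.0360 to 0.166% in the ganglia libraries, so these ranges overlapped. Single nerve clusters differed in both directions. In untreated spiders edgeR, as described below, called 15 of 59 lower and 6 higher in the gland than in the ganglia. Over all clusters tested, 6.35% were called lower and 3.91% higher. The mean fragment length implied by the deposited values was 278 to 279 bases in the 4 gland libraries with lead, alone or with cadmium, and 248 to 274 bases in the 6 without lead. In the ganglia it was 272 to 282 bases in the 4 libraries with lead, alone or with cadmium, and 249 to 263 bases in the 6 without. The sources used here name no separate preparation for these libraries, and why the lengths differ was not tested. Whatever set fragment length cannot be told apart from lead in any comparison, within a tissue, of a group with lead and a group without it. This includes the comparisons with untreated libraries that gave the calls below.

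The clusters are short: 9 of 12 are 303 to 1222 bases long, the longest is 3093 bases, and most of their descriptions are marked partial. Several may be parts of 1 gene, and repeats can share reads between them, so they are not independent measurements. The best level across clusters of different length is FPKM, the count scaled by cluster length and library size, given here as the mean over all 20 libraries. Cluster-16698.46827, whose best protein and nucleotide hits are the flagelliform fibroin of *A. ventricosus* itself, had 1001 FPKM and held 50.7% of all member counts. It is called the fibroin cluster below, and it and Cluster-16698.31384 were the 2 members with reads in all 20 libraries.

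A group of 4 other members has its nucleotide hit in the *A. ventricosus* flagelliform silk protein-1 mRNA. The silk protein-1 clusters Cluster-16698.31384 and Cluster-16698.30451 had 15.98 and 11.6 FPKM, and the variant 1 clusters Cluster-16698.26599 and Cluster-16698.24458 had 13.1 and 4.78 FPKM. Cluster-16698.30451 is 303 bases long, close to the length of a sequenced fragment, so its FPKM is inflated. The hits of another 4 members lie in other orb weavers or in widow spiders. Cluster-16698.32403, with a variant 1 hit in the western black widow *Latrodectus hesperus*, had 357 FPKM and 26.9% of member counts. Cluster-16698.16412, with a variant 2 hit in *Araneus diadematus*, had 191 FPKM and 13.9% of member counts. Cluster-16698.27365 and Cluster-16698.87601, with variant 1b hits in *A. diadematus* and *Argiope argentata*, had 31.1 and 14.97 FPKM. The last 3 members, Cluster-16698.62529, Cluster-16698.65687 and Cluster-25504.0, hit a variant 1 of *Steatoda grossa*, a cobweb spider, and had 3.83, 0.578 and 0.471 FPKM. This grouping by hit was made after the values were seen.

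The names do not all hold equally well. The nucleotide description also says flagelliform for 7 of the 12. For Cluster-16698.32403 the nucleotide hit is the *Argiope trifasciata* gene of aggregate spidroin 2, a glue protein, and its protein family match is a D-isomer specific 2-hydroxyacid dehydrogenase domain, an enzyme fold. Cluster-16698.62529 carries a Swissprot hit to calcium-binding protein P of a slime mould and a Rad4 domain, a fold of DNA repair proteins. These clusters are therefore named after their NR hit only. No sequence of any cluster is given in the files, so the hits could not be inspected.

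Levels varied as much between libraries as between members. In the gland the fibroin cluster averaged 1239 ± 1344 FPKM, the *Latrodectus* hit Cluster-16698.32403 711 ± 1654 and the variant 2 cluster Cluster-16698.16412 369 ± 689 (SD, n = 10 libraries each). Next came the variant 1b cluster Cluster-16698.27365 with 61.4 ± 123 FPKM and the *Argiope* hit Cluster-16698.87601 with 29.8 ± 50.5 FPKM. In this order no neighbours differed beyond their spread. In the ganglia the fibroin cluster averaged 763 ± 1327 FPKM, the variant 2 cluster 13.4 ± 39.0 and the longer silk protein-1 cluster Cluster-16698.31384 10.5 ± 10.8 (SD, n = 10). The fibroin cluster ranged from 38.1 to 4434 FPKM there, above the highest library of the longer silk protein-1 cluster, 30.9 FPKM, in all 10 libraries.

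**Figure D1:**
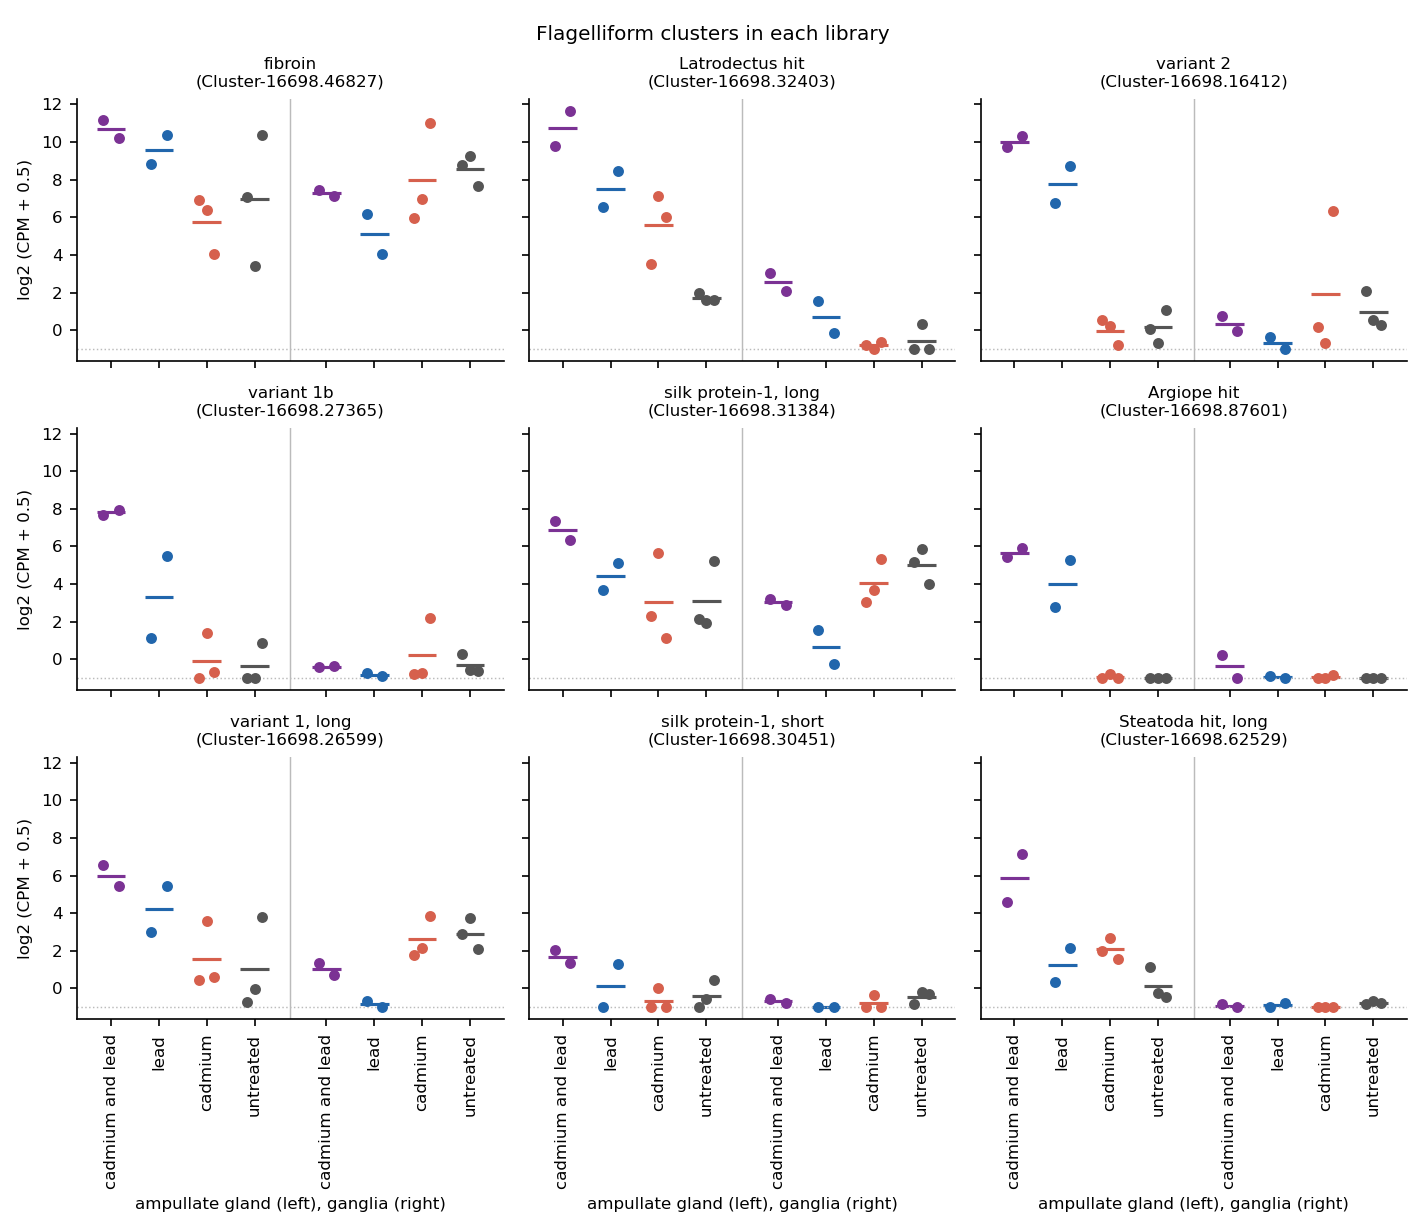
Scaled counts, as log2 (CPM + 0.5), of the 9 flagelliform clusters named with values in every library, for the groups with both metals, lead, cadmium and no treatment, gland on the left and ganglia on the right. Dots are libraries, bars are means of log values, and the dotted line marks libraries with no read. In the gland the dots of the *Latrodectus* hit at 899 and 3234.5 CPM with both metals stand far above those of the untreated gland at 2.51 to 3.43 CPM, while the fibroin cluster overlaps between these groups.

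In the ampullate gland, 3 flagelliform clusters rose with exposure to cadmium and lead. In the values below, CPM (counts scaled to a common library size) use the TMM factors of each tissue's libraries. Tests are edgeR's quasi-likelihood F test, p is adjusted by Benjamini-Hochberg over all clusters tested, and a cluster is called changed at an adjusted p under 0.05. The filter on low counts kept 11 of the 12 members in the gland; 6 of these had reads in all 3 untreated libraries, 3 in 1 or 2 of them, and 2 in none. Of the 11, 3 were called higher with cadmium and lead than in the untreated gland and 0 were called lower, against 0.119% of all clusters tested called higher. Members without reads in the untreated gland passed the filter only through the exposed libraries, so they could not be called lower. The *Argiope* hit, among the 3 called, is such a member and adds nothing to this count. The same limit applies to each comparison with the untreated gland below.

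The *Latrodectus* hit Cluster-16698.32403 had 899 and 3234.5 CPM in the glands exposed to both metals and 91.5 and 347 CPM in the lead glands. It had 11.1, 141 and 65.3 CPM in the cadmium glands, against 3.43, 2.51 and 2.54 CPM in the untreated glands. Every exposed library, whatever the metal, lay above every untreated library, and those with both metals lay above all others. With both metals it rose by 9.51 ± 1.23 on the log2 scale (SE, edgeR adjusted p = 0.0346).

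The variant 2 cluster Cluster-16698.16412 had 860.15 and 1260 CPM with both metals, 109 and 423 CPM with lead and 0.937, 0.669 and 0.0687 CPM with cadmium. The untreated glands had 0.563, 0.117 and 1.63 CPM. The 4 libraries with lead, alone or with cadmium, stood above all others, whereas the cadmium and untreated libraries overlapped. With both metals it rose by 10.42 ± 1.41 (log2 ± SE, edgeR adjusted p = 0.0388).

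The *Argiope* hit Cluster-16698.87601 had 42.4 and 59.0 CPM with both metals, 6.25 and 38.2 CPM with lead and 0, 0.0891 and 0 CPM with cadmium. All 3 untreated glands had no read of it. A floor of 3 counts over the untreated group is 0.0583 CPM, so the glands with both metals were at least 869.7-fold higher (edgeR adjusted p = 0.0388).

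These 3 calls depended on single libraries. Leaving out untreated replicate 1 or 2, cadmium replicate 2 or 3, or the second library with both metals left 0 of the members called. Leaving out cadmium replicate 1 or the first library with both metals left 1 member called, and in only 1 of these settings was it among the 3. Without untreated replicate 3, lead replicate 1 or lead replicate 2, 4 members were called.

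The other variant 1b cluster, Cluster-16698.27365, had 206 and 247 CPM with both metals, 1.72 and 43.9 CPM with lead, 0, 2.18 and 0.137 CPM with cadmium and 0, 0 and 1.33 CPM untreated. The libraries with lead lay above the untreated ones, and the cadmium libraries overlapped with them. The log2 difference between both metals and untreated was 8.98 ± 2.65 and was not called (SE, edgeR adjusted p = 0.210).

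The fibroin cluster Cluster-16698.46827, the most abundant member, had 2330 and 1199 CPM with both metals, 448 and 1323 CPM with lead, 118, 81.8 and 16.2 CPM with cadmium and 135, 10.2 and 1319 CPM untreated. Untreated replicate 3 alone reached the level of the libraries with both metals, so these groups overlapped. Neither the difference with both metals, 1.85 ± 1.52, nor that with lead, 0.86 ± 1.51, nor that with cadmium, -2.76 ± 1.46, was called (log2 ± SE, edgeR adjusted p = 0.563, 0.817 and 1). These values moved with single libraries. Without untreated replicate 3 they were 4.60, 3.65 and 0.03, and without lead replicate 2 the difference with lead was -0.10.

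The longer silk protein-1 cluster, Cluster-16698.31384, had 162 and 81.7 CPM with both metals, 12.6 and 34.4 CPM with lead, 4.44, 48.9 and 1.72 CPM with cadmium and 3.99, 3.27 and 36.3 CPM untreated. The libraries with both metals were above all others, while the other groups overlapped. The variant 1 cluster of the same nucleotide hit, Cluster-16698.26599, had 93.2 and 42.8 CPM with both metals, 7.40 and 42.4 CPM with lead, 0.888, 11.5 and 1.03 CPM with cadmium and 0.113, 0.468 and 13.5 CPM untreated. Here too the highest untreated library was replicate 3 and the libraries with both metals lay above all untreated ones. The differences between both metals and untreated, 3.07 ± 1.49 and 3.86 ± 1.87, were not called (log2 ± SE, edgeR adjusted p = 0.363 and 0.362). The short silk protein-1 cluster, Cluster-16698.30451, had 3.59 and 2.05 CPM with both metals, 0 and 1.94 CPM with lead, 0, 0.535 and 0 CPM with cadmium and 0, 0.175 and 0.845 CPM untreated.

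Among the *Steatoda* hits, the longest, Cluster-16698.62529, had 23.4 and 142 CPM with both metals, 0.766 and 3.95 CPM with lead, 3.55, 5.97 and 2.47 CPM with cadmium and 1.69, 0.351 and 0.242 CPM untreated. Every library with both metals or with cadmium lay above every untreated library. The difference with both metals, 6.75 ± 1.19, was not called (log2 ± SE, edgeR adjusted p = 0.0629). Cluster-16698.65687 reached at most 11.3 CPM, in the second library with both metals, and had 0.840 CPM in the first. It had no read in the untreated gland. Its mean with both metals was at least 104-fold higher, which rested mainly on the second library and was not called (edgeR adjusted p = 0.180). Cluster-25504.0 reached at most 2.05 CPM, in 1 library with both metals, and was too low to be tested.

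**Figure D2:**
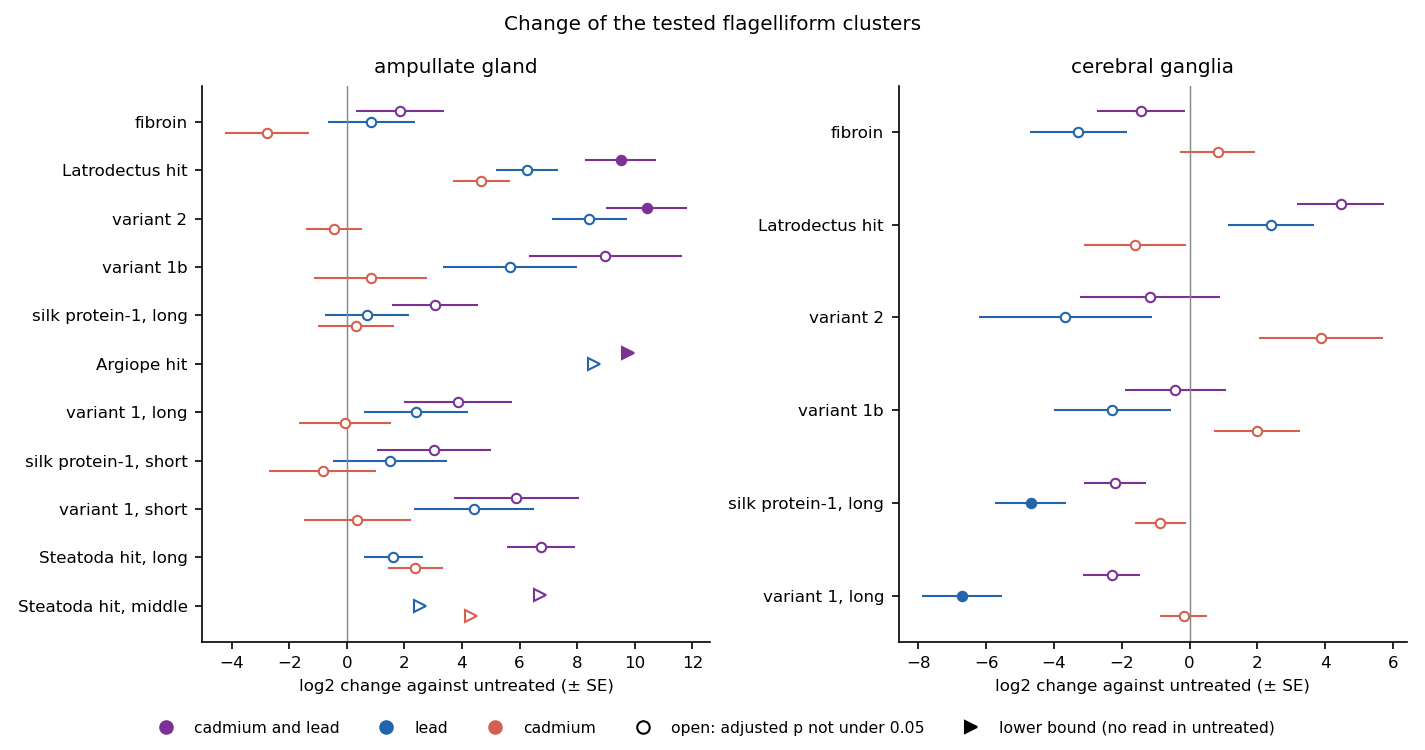
Log2 difference from the untreated libraries of the same tissue for each flagelliform cluster tested, with both metals, lead and cadmium, gland and ganglia apart. Points are edgeR estimates with bars of 1 SE, filled points were called, and clusters with no read in the untreated libraries are drawn at their lower bound. The filled points are 3 clusters in the gland with both metals, at 9.51, 10.42 and at least 9.76, and 2 clusters in the ganglia with lead, at -6.72 and -4.69.

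All 11 members tested had a positive difference between both metals and untreated in the gland, with a median log2 difference of 6.75, or 6.71 with clusters without untreated reads at their bound. The median over all clusters tested was -0.04. In 10 of the 11, every library with both metals lay above every untreated library, which held for 18.3% of all clusters tested. The fibroin cluster was the exception. The 2 members without untreated reads could not go the other way, so they add nothing to the counts of positive differences and of separated libraries. Another 3 had reads in only 1 or 2 untreated libraries and were near the floor there. There were 7 members at an unadjusted p under 0.05, against 6612 of all 44505 clusters tested. DESeq2 called 6 members, and many more clusters in all than edgeR. Its counts here and below stand without a share over all clusters, so no result about the members rests on them. With untreated replicate 3 left out the median was 9.38.

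With lead alone, edgeR called 0 of the 11 members in the gland, where 0% of all clusters tested were called. An unadjusted p under 0.05 was found for 4 members, against 5283 of all 44505 clusters tested. DESeq2 called 3, which were the same 3 clusters called with both metals. All 11 members had a positive difference, with a median of 4.42, or 2.56 with clusters without untreated reads at their bound, against -0.15 over all clusters tested. In 6 of the 11, every lead library lay above every untreated one, against 19.0% of all clusters tested. The 2 members without untreated reads are among these 6 and again add nothing to the count. The variant 2 cluster Cluster-16698.16412 differed by 8.42 ± 1.31, the *Latrodectus* hit Cluster-16698.32403 by 6.27 ± 1.08 and the variant 1b cluster Cluster-16698.27365 by 5.67 ± 2.34 (log2 ± SE, edgeR adjusted p = 0.160, 0.182 and 0.410). The *Argiope* hit Cluster-16698.87601 was at least 382-fold higher, which was not called (edgeR adjusted p = 0.126). Without lead replicate 2 the median was 2.47, and without untreated replicate 3 it was 6.18. Leaving out lead replicate 1, lead replicate 2 or untreated replicate 3 gave 1 call.

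With cadmium alone, edgeR also called 0 of the 11, and 0% of all clusters tested were called. An unadjusted p under 0.05 was reached by 3 members, against 1273 of all 44505 clusters tested, and DESeq2 called 1 member. The members were split, 7 of 11 with a positive difference and a median of 0.37, against 0.07 over all clusters tested. In 2 of the 11 every cadmium library lay above every untreated one, against 5.76% of all clusters tested; these were the *Latrodectus* hit and the longest *Steatoda* hit. Cluster-16698.32403 differed by 4.68 ± 0.98 and Cluster-16698.62529 by 2.38 ± 0.96 (log2 ± SE, edgeR adjusted p = 1 for both). The *Steatoda* hit Cluster-16698.65687 had 0.345, 3.16 and 0 CPM with cadmium and no read untreated, so cadmium replicate 3 equalled the untreated libraries. Its cadmium mean was at least 20.1-fold higher, which rested mainly on cadmium replicate 2 and was also not called. The sign of the cadmium median rested on single libraries: it was 2.52 without untreated replicate 3 and -2.23 without cadmium replicate 2.

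The exposures were also set against each other. Between both metals and lead, edgeR called 0 of the 11, with 0% of all clusters tested called. In this comparison 2 members had an unadjusted p under 0.05, against 902 of all 44505 clusters tested, and DESeq2 called 1 member. All 11 were higher with both metals than with lead by the estimate, with a median of 1.995 against 0.04 over all clusters tested. In 9 of them both libraries with both metals lay above both lead libraries, against 13.2% of all clusters tested. Between both metals and cadmium, edgeR called 0 of the 11, with 0% of all clusters tested called. DESeq2 called 6 members, and 7 had an unadjusted p under 0.05, against 5032 of all 44505 clusters tested. The median was 4.61 against -0.12 over all clusters tested, and in 10 members every library with both metals lay above every cadmium library, against 17.9% of all clusters tested. These comparisons share the libraries with both metals, and those with untreated glands share the untreated ones.

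A further contrast set the change with both metals against the cadmium change plus the lead change. EdgeR called 0 of 11 members, with 0% of all clusters tested called, and DESeq2 called 0. An unadjusted p under 0.05 was found for 0 members, against 798 of all 44505 clusters tested. The median departure of 2.04 on the log2 scale was -1.32 without untreated replicate 3, so its sign rested on that library.

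The makeup of flagelliform RNA differed between libraries. The 12 clusters together took 0.372 and 0.783% of all counts with both metals, 0.0564 and 0.205% with lead, 0.0166, 0.0318 and 0.00732% with cadmium and 0.0173, 0.00169 and 0.134% untreated. Without the fibroin cluster the other 11 took 0.185 and 0.634% with both metals, 0.0192 and 0.0853% with lead, 0.00253, 0.0231 and 0.00596% with cadmium and 0.00117, 0.000682 and 0.00556% untreated. The libraries with both metals were the highest in either sum, and the lead libraries lay above the untreated ones only in the sum without the fibroin cluster. The mean share with both metals was 11.3 times the untreated mean for all 12 clusters and 166 times for the 11 without the fibroin cluster. These ratios rested on untreated replicate 3, without which they were 60.8 and 441.5. With both metals the largest of the 11 was Cluster-16698.32403, whose nucleotide hit is an aggregate spidroin, with 11776 and 74190 counts. A ratio without it was not computed, so 166 does not describe clusters with a flagelliform nucleotide hit alone. The 5 clusters with an *A. ventricosus* nucleotide hit, the fibroin cluster among them, took 0.209 and 0.166% with both metals and 0.0166, 0.00140 and 0.133% untreated. The fibroin cluster made up 19.1 and 50.2% of member counts with both metals, 58.3 and 65.9% with lead, 18.7 to 84.7% with cadmium and 59.7 to 95.9% untreated.

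**Figure D3:**
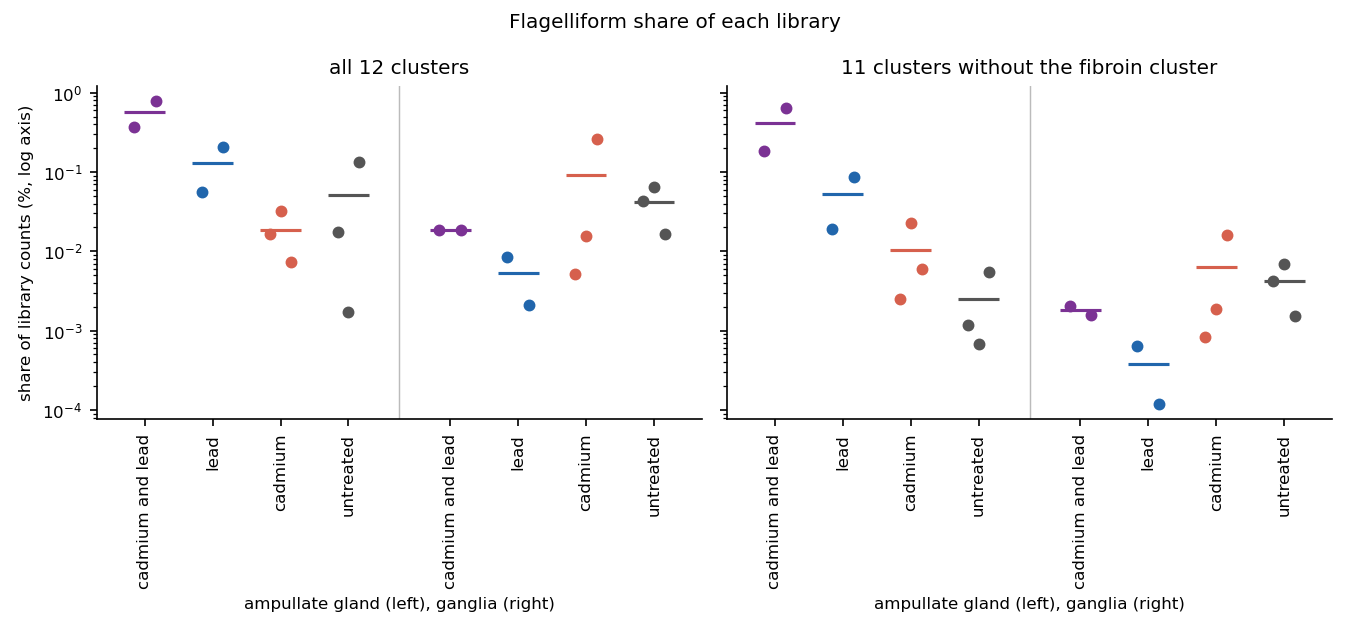
Share of all counts of a library (percent, log scale) taken by all 12 flagelliform clusters (left) and by the 11 without the fibroin cluster (right), for both metals, lead, cadmium and untreated, gland left of ganglia in each panel. Each point is a library and bars are group means. In the gland the 11 clusters took 0.185 and 0.634% with both metals and at most 0.00556% untreated, without overlap.

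Across the 10 gland libraries members were correlated with each other to different degrees. The values are correlations of log2 (CPM + 0.5) over libraries that share exposures, given as a description. Among the 5 clusters with an *A. ventricosus* nucleotide hit, pairs had Pearson correlations of 0.742 to 0.943, and among the 4 clusters with hits in other species 0.820 to 0.989. Between these sets they were 0.508 to 0.959, the lowest being that of the fibroin cluster with the *Latrodectus* hit, so the sets overlapped. The variant 1b cluster Cluster-16698.27365, for example, had 0.959 with Cluster-16698.24458 of the first set and 0.870 with the *Latrodectus* hit of its own. Among the 3 *Steatoda* hits pairs had 0.750 to 0.855, and with the other members 0.301 to 0.852. How far shared reads raise these values was not tested.

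The clusters most like the fibroin cluster across the same 10 gland libraries, of 14033 compared, were a major ampullate gland peroxidase, a Niemann-Pick C1 protein, a WD repeat-containing protein 46, a histidine-rich glycoprotein-like protein and a cluster whose Swissprot hit is the ribosomal RNA methyltransferase Nsun5. Each had a correlation of 0.91 with it. For the *Latrodectus* hit, a comparison added after the data were seen, the list was a fatty acid synthase and a Myb/SANT-like protein at 0.99 and an aggregate spidroin 1 variant 1, a murinoglobulin and an ileal sodium/bile acid cotransporter at 0.98. With 10 libraries and so many candidates, high values arise readily.

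Clusters of the glue that coats the capture spiral stood beside these values. Of 11 aggregate spidroin clusters tested, 9 were called higher in the gland with both metals than untreated, with a median log2 difference of 8.25. Cluster-16698.45697, an aggregate spidroin 1, rose by 8.81 ± 0.98 (log2 ± SE, edgeR adjusted p = 0.0170). Summed over the aggregate list, the libraries with both metals had 18745 and 61268 CPM, against 588, 335 and 1103 CPM in the untreated libraries. The gland library highest in the aggregate sum, the second with both metals, was also the highest in the *Latrodectus* and *Steatoda* hits. The same held for the variant 2 cluster, the variant 1b cluster Cluster-16698.27365 and the *Argiope* hit. The clusters with an *A. ventricosus* nucleotide hit, the fibroin cluster among them, were highest in the first library with both metals.

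In the same comparison 6612 of all 44505 clusters tested had an unadjusted p under 0.05. EdgeR called 0 of 9 minor ampullate clusters, with a median of 7.29, while 7 had an unadjusted p under 0.05 and DESeq2 called 3 higher. Of 19 major ampullate clusters it called 0, with a median of 5.54, while 9 had an unadjusted p under 0.05 and DESeq2 called 2 higher. Of 12 aciniform clusters it called 0, with a median of -4.79, while 8 had an unadjusted p under 0.05 and DESeq2 called 7 lower. Of 3 pyriform clusters it called 0, with a median of -2.65, while 2 had an unadjusted p under 0.05 and DESeq2 called 1 lower. Aciniform clusters summed to 827 and 2843 CPM with both metals, against 31089, 156640 and 54586 CPM untreated. The libraries with both metals, the highest in flagelliform and aggregate RNA, were the lowest of the gland libraries in aciniform RNA. Of 59 muscle clusters 8 were called lower, with a median of -2.87, where 0.106% of all clusters tested were called lower. Of 38 nerve clusters edgeR called 0, with a median of 0.08, and DESeq2 called 2. Of these nerve clusters 6 had an unadjusted p under 0.05, near the share over all clusters. Of 16 clusters for enzymes that handle glycine or proline, residues in which flagelliform repeats are rich, edgeR and DESeq2 called 0. Their median was 0.63, with 3 at an unadjusted p under 0.05. Not all of these enzymes supply the residues. Of 27 clusters for entry into the secretory pathway edgeR called 0, with a median of -0.09, 2 at an unadjusted p under 0.05 and 1 called by DESeq2. Of 15 hemolymph and hemocyte clusters 1 was called lower, with a median of -1.91. Whether the glands dissected with the ampullate gland differed between libraries was not tested.

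**Figure D4:**
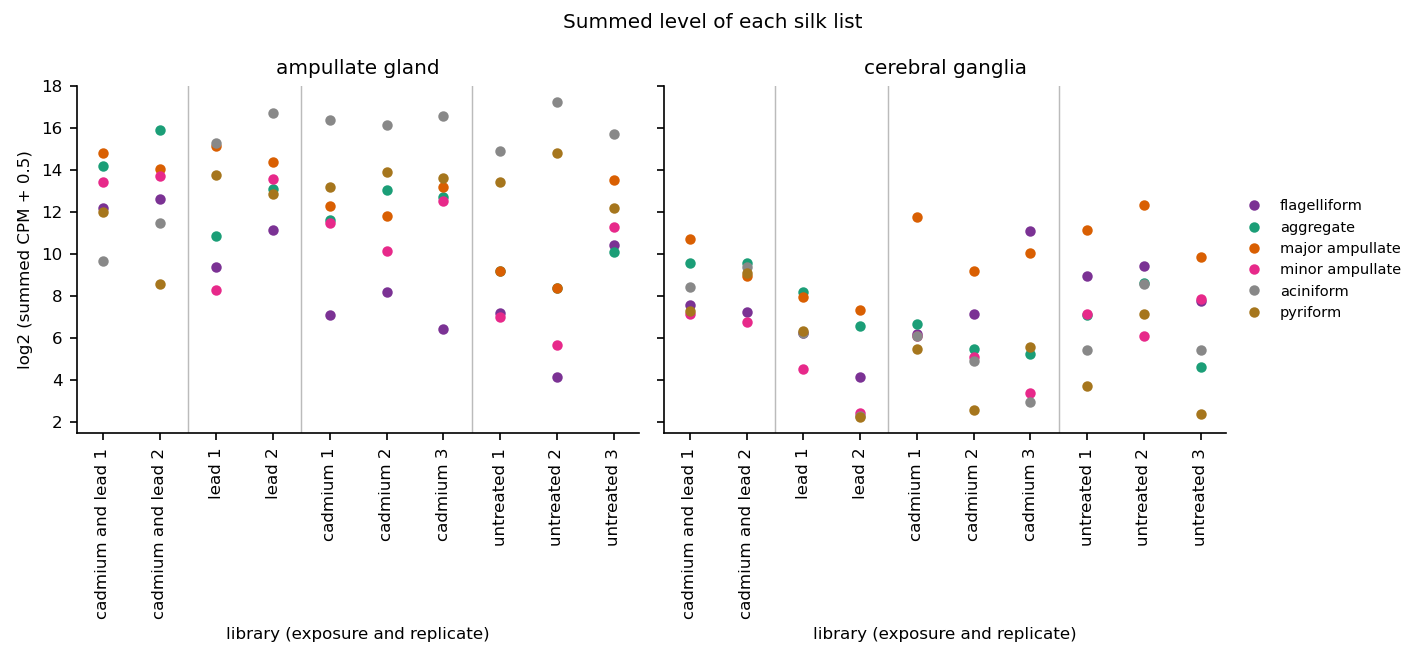
Summed level, as log2 (summed CPM + 0.5), of the flagelliform, aggregate, minor ampullate, major ampullate, aciniform and pyriform clusters in each library, for both metals, lead, cadmium and untreated. Each point is a library. In the gland with both metals the aggregate sums of 18745 and 61268 CPM exceed the untreated sums of 335 to 1103 CPM, while the aciniform sums of 827 and 2843 CPM lie below the untreated sums of 31089 to 156640 CPM.

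In the cerebral ganglia, flagelliform RNA was mainly the fibroin cluster, and 2 members fell with lead. The fibroin cluster made up 84.0 to 94.4% of member counts in the ganglia libraries. The filter kept 6 members; 5 of these had reads in all 3 untreated libraries and 1 in 1 of them. With lead, 2 of the 6 were called lower than in the untreated ganglia, against 2.24% of all clusters tested called lower. In 5 of the 6 every lead library lay below every untreated library, against 21.3% of all clusters tested. The median log2 difference was -3.47, against -0.05 over all clusters tested.

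The variant 1 cluster Cluster-16698.26599 had 0.140 and 0 CPM in the lead ganglia, against 6.98, 12.8 and 3.81 CPM in the untreated ganglia. The longer silk protein-1 cluster Cluster-16698.31384 had 2.48 and 0.345 CPM with lead, against 36.1, 57.6 and 15.5 CPM untreated. Lead libraries were below untreated ones without overlap in both. Cluster-16698.26599 fell by 6.72 ± 1.18 on the log2 scale and Cluster-16698.31384 fell by 4.69 ± 1.05 (SE, edgeR adjusted p = 0.0238 and 0.0403). Cluster-16698.26599 had 3 counts in the lead ganglia in all, against 363 in the untreated ganglia, a ratio of 0.00822 (95% interval 0.00169 to 0.0242, exact, counting error only). Leaving out either lead library left 0 called. Leaving out any 1 untreated library, either library with both metals or cadmium replicate 2 left 1, and leaving out cadmium replicate 3 gave 3. Without lead replicate 1, Cluster-16698.26599 then rested on a single lead library with no read and its difference was -10.08.

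The fibroin cluster had 70.6 and 16.1 CPM in the lead ganglia, against 443, 617 and 199.5 CPM in the untreated ganglia. These groups did not overlap either, and the difference of -3.28 ± 1.43 was not called by edgeR (log2 ± SE, adjusted p = 0.194), while DESeq2 called it. The *Latrodectus* hit Cluster-16698.32403 had 2.39 and 0.389 CPM with lead, against 0, 0.744 and 0 CPM untreated, and these overlapped. In the same comparison, 2 of 16 major ampullate clusters were called lower, with a median of -2.14. EdgeR called 0 of 5 minor ampullate, 0 of 6 aciniform and 0 of 3 pyriform clusters, with medians of -2.76, -1.87 and -0.31. Of these, 3, 1 and 0 had an unadjusted p under 0.05. EdgeR and DESeq2 called 0 of 10 aggregate clusters, with a median of 0.93. An unadjusted p under 0.05 was found for 0 of these 10, against 9614 of all 38659 clusters tested. Of 55 nerve clusters, 4 were called higher and 0 lower, with a median of 0.36, where 2.67% of all clusters tested were called higher.

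With both metals, edgeR called 0 of the 6 members in the ganglia, against 1.06% of all clusters tested called. DESeq2 called 2 members, and 3 had an unadjusted p under 0.05, against 8554 of all 38659 clusters tested. The longer silk protein-1 cluster had 8.89 and 6.87 CPM and the variant 1 cluster Cluster-16698.26599 had 2.04 and 1.17 CPM, both below all 3 untreated values given above. Their differences were -2.21 ± 0.91 and -2.30 ± 0.85 (log2 ± SE, edgeR adjusted p = 0.195 and 0.152). The *Latrodectus* hit had 7.84 and 3.78 CPM, above all 3 untreated values, with a difference of 4.45 ± 1.28 (log2 ± SE, edgeR adjusted p = 0.0921). The fibroin cluster had 172 and 138 CPM, below the lowest untreated library. The aggregate sum was 779 and 770 CPM in these ganglia, against 136, 395 and 24.3 CPM untreated.

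With cadmium, edgeR called 0 of the 6 in the ganglia, with 0% of all clusters tested called, and DESeq2 called 0. An unadjusted p under 0.05 was found for 0 members, against 2946 of all 38659 clusters tested. The fibroin cluster had 61.2, 127 and 2039 CPM with cadmium. Replicate 3 was the highest ganglia library for this cluster, and the variant 2 cluster had 79.7 CPM in it, against 0.613 and 0.115 CPM in the other cadmium libraries. In that replicate all members summed to 2177 CPM, whereas the aggregate list summed to 37.5 CPM, the minor ampullate list to 9.99 CPM and the aciniform list to 7.27 CPM, all within or below the range of the untreated ganglia. The median difference of 0.32 became -2.13 without that replicate.

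Gland and ganglia were compared in 1 fit of all 20 libraries, in which 11 members were tested. In untreated spiders, edgeR called 0 of 11, against 10.3% of all clusters tested called. DESeq2 called 2 members, and 2 had an unadjusted p under 0.05, against 14565 of all 51904 clusters tested. Cluster-16698.65687 and Cluster-16698.87601 had no read in either untreated tissue, so they could not differ there. Over the other 9 members the median difference, gland minus ganglia, was 0.23 on the log2 scale, and over all 11 it was 0.02. Without ganglia untreated replicate 2, 1 member was called. The fibroin cluster overlapped between the tissues, with 10.2 to 1319 CPM in the untreated gland and 199.5 to 617 CPM in the untreated ganglia, each on its own tissue's scale.

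In exposed spiders some members were higher in the gland. With cadmium 2 of 11 were called higher in gland than ganglia, against 5.48% of all clusters tested, namely the *Latrodectus* hit Cluster-16698.32403 by 9.67 ± 1.60 (log2 ± SE, edgeR adjusted p = 0.00166) and the longest *Steatoda* hit Cluster-16698.62529, which had no read in the cadmium ganglia and was at least 64.5-fold higher (edgeR adjusted p = 0.00144). With lead 4 of 11 were called higher in gland, against 2.57% of all clusters tested, and with both metals 4 of 11, against 1.95%. The same 4 clusters were called with lead and with both metals: Cluster-16698.16412, Cluster-16698.32403, Cluster-16698.62529 and Cluster-16698.87601. In any ganglia library Cluster-16698.62529 had at most 2 counts and Cluster-16698.87601 at most 11. Both passed the filter only through the gland libraries, so a call of either, with cadmium as well, could only fall on the gland side. These 2 therefore add nothing to the counts set against all clusters. The variant 2 cluster differed by 10.19 ± 2.78 with both metals and by 10.74 ± 2.89 with lead (log2 ± SE, edgeR adjusted p = 0.0439 and 0.0415). Both calls were weak: the call with both metals was lost in 15 of 26 alternatives and the call with lead in 14 of 26, with no filter on low counts and with the replicate block in both. In the lead ganglia this cluster had 6 counts, all in 1 library. The *Latrodectus* hit differed by 8.30 ± 1.75 with both metals and by 7.20 ± 1.68 with lead (log2 ± SE, edgeR adjusted p = 0.0130 and 0.0204).

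The other 2 of these clusters had almost no reads in some of the exposed ganglia, so the sizes there rest on still fewer counts. The longest *Steatoda* hit Cluster-16698.62529 had 3570 counts in the glands with both metals and 1 in the ganglia, a scaled ratio of 3330 (95% interval 597 to 131600, exact, counting error only), and was called at an edgeR adjusted p of 0.00148. With lead it had 77 counts in the glands and 2 in the ganglia, a ratio of 49.8 (13.3 to 418, edgeR adjusted p = 0.0275). The *Argiope* hit Cluster-16698.87601 differed by 7.10 ± 1.58 with both metals (log2 ± SE, edgeR adjusted p = 0.0220). With lead it had 728 counts in the glands and 1 in the ganglia, a ratio of 941 (168 to 37210, edgeR adjusted p = 0.0117).

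The lead count was 0 without gland lead replicate 2 or either ganglia lead library and 2 without gland lead replicate 1 or either ganglia library with both metals. The count with both metals was 1 without the second gland library or the second ganglia library with both metals, and 2 without the first ganglia library with both metals. It was 6 without gland untreated replicate 3. The fibroin cluster was not called between the tissues in any exposure in the edgeR fit of all 20 libraries. Fitted on the lead libraries alone, edgeR called it higher in the gland (log2 difference 4.30, adjusted p = 0.0312), and DESeq2 called it lower in the gland with cadmium and higher with lead. Whether the exposures changed the members differently in the tissues was tested with 3 degrees of freedom. EdgeR called 0 of 11, with 0% of all clusters tested called and a smallest adjusted p of 0.324, while DESeq2 called 4. An unadjusted p under 0.05 was found for 7 members, against 3185 of all 51904 clusters tested.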

How the data were processed

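RNA-seq of the ampullate gland and cerebral ganglia was used, 24 labelled samples in 8 groups; 4 columns that copy another column were left out. The authors deposited estimated counts (expected counts, not whole) per cluster and, as read from the values, FPKM for the same clusters of an assembly without a genome. The deposited cluster length is treated as a score. RNA was made with an RNeasy kit and libraries with a SMARTER mRNA-Seq kit, per the labels' protocols; the sources used here name no assembler or counting tool. Counts were rounded and tested with edgeR 4.0.16 in R 4.3.3 (filterByExpr, TMM, robust quasi-likelihood fit, 1 mean per group), each tissue once and all 20 libraries once; DESeq2 1.42.0 was an alternative. FPKM served only to compare clusters. The edgeR test of both metals against untreated gland was run on simulated counts with known changes, and the other steps were not tested in this way. Members named are the 8 of highest FPKM and any called. Silk lists were narrowed to spidroin, silk, fibroin and glue names after the data were seen. The members, lists, tests and alternatives were chosen with earlier results of these data known. The fit takes a group of 2 libraries to scatter as the larger groups do. Within a tissue, deviations from the group means of same-numbered libraries correlated at -0.196 to 0.311 in the gland and -0.266 to 0.186 in the ganglia. Of 13 such pairs per tissue, 1 in the gland and 5 in the ganglia were above 0.1. Groups of 2 libraries give mirrored deviations, so pairing by number was neither shown nor excluded. Whether gland and ganglia libraries of the same number share spiders was not tested, and the fits treat them as unpaired.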

Additional observations from a re-analysis of the deposited data

Results flagged for a closer look

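In 4 cases every gland library of an exposure lay above all untreated gland libraries while every ganglia library of that exposure lay below all untreated ganglia libraries. How many of all clusters do so was not counted, so this number stands without a share and is no result about the members. With lead, the variant 2 cluster Cluster-16698.16412 had a log2 difference of 8.42 in the gland and -3.66 in the ganglia. The variant 1b cluster Cluster-16698.27365 had 5.67 and -2.28. Both were near the floor in the ganglia, with 6 and 3 counts in the lead libraries against 82 and 16 in the untreated ones. With both metals, the longer silk protein-1 cluster Cluster-16698.31384 had 3.07 in the gland and -2.21 in the ganglia. The variant 1 cluster Cluster-16698.26599 had 3.86 and -2.30. The difference between tissues was not tested for a single exposure. Over all exposures together, edgeR's test with 3 degrees of freedom called none of them (adjusted p = 0.324, 0.633, 0.789 and 0.617).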

How the results depend on the processing

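The number of members called followed the tool and the filter, and the cause was not tested. With no filter on low counts, edgeR called 6 with both metals against untreated gland, 3 with lead, 2 with cadmium, 2 between both metals and lead, 5 between both metals and cadmium, 2 in ganglia with both metals, 1 between untreated tissues and 1 by exposure and tissue. DESeq2 called 6, 3, 1, 1, 6, 2, 2 and 4 in the same order, and 7 between the lead tissues. Fitted on only the groups compared, the count was 0 for both metals in the gland and for lead in the ganglia, and 9 between the lead tissues. With the replicate block it was 1 for both metals in the gland, 1 for lead in the ganglia and 2 between tissues with both metals, and the gland medians were 1.58 with cadmium, 5.71 with lead and 8.29 with both metals. Over all clusters, both metals against untreated gland gave 100 calls, 2182 without a filter, 3213 with DESeq2 and 26 with the block.

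Leaving out 1 library gave 0 to 4 members called with both metals in the gland (median 6.41 to 9.38), 0 to 1 with lead (2.47 to 6.18), 0 to 1 between both metals and cadmium (4.13 to 6.14), 0 to 3 in ganglia with lead, 0 to 1 in ganglia with both metals, and between tissues 0 to 1 untreated (-2.36 to 0.61), 0 to 5 with lead (4.26 to 7.11) and 1 to 6 with both metals. Medians ran from -2.23 to 2.52 for cadmium, 1.504 to 3.30 between both metals and lead, -1.32 to 3.73 for the departure, -2.13 to 1.44 in ganglia with cadmium and -2.88 to 1.08 between the cadmium tissues. The fibroin cluster reversed in the gland, with -3.33 to 0.0314 for cadmium and -0.10 to 3.65 for lead.

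The share of counts with both metals was 0.968% in the gland and 0.0247% in the ganglia with the 11 clusters named flagelliform only in the nucleotide description, an alternative added after the data were seen. In the ganglia it was 0.0296% by FPKM and 0.0210% of totals without the largest cluster. Of the members' values under all settings, 587 kept direction and side of the threshold, 29 became called, 89 were no longer called and 2 reversed.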
